A study of Mus musculus with 18 samples.

Results

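The genes described here encode the proteins of the cytoplasmic ribosome. They were taken from 18 RNA-seq count tables of mouse ileal epithelium as the rows of GENCODE gene type protein_coding whose symbol has the form of a large-subunit (Rpl) or small-subunit (Rps) protein, together with Rplp0, Rplp1, Rplp2 and Rpsa. The rule found 83 genes among the 47729 rows, 51 of the large and 32 of the small subunit, and 80 of them had enough counts to be tested. A further 5 rows with such symbols are annotated as pseudogenes (Rps4l, Rps12l1, Rpl6l, Rps3a2 and Rps3a3) and were not members. Fau, which encodes a ribosomal protein fused to a ubiquitin-like protein, does not have such a symbol and is counted only with the ribosome's partner genes.

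The study examined how the gut of the mother grows around pregnancy. Epithelial cells were sorted by FACS from the ileum, the last stretch of the small intestine, of female mice, and poly(A) RNA was sequenced; the virgin, pregnant and pseudopregnant groups hold 6 libraries each. Pseudopregnancy is the hormonal state that follows a sterile mating. The mice of all groups were fed RM3 chow while breeding and RM1 in maintenance and during the experiment. The sources used here give no age, strain, day of pregnancy, way of inducing pseudopregnancy or sorting marker. Libraries are named below by their group and replicate number. The labels do not say that each library came from a separate animal, so p-values measure only the spread between these libraries, which may be technical.

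A cytoplasmic ribosome holds a single copy of nearly every ribosomal protein, apart from the stalk proteins Rplp1 and Rplp2, which are present as pairs. Their mRNAs are short and among the most abundant of growing cells. Many begin with a 5′ terminal oligopyrimidine (TOP) tract, a C at the first base followed by pyrimidines, through which the growth kinase complex mTORC1 and the RNA-binding protein Larp1 control their translation and stability. In the intestine, ribosome production is high in the dividing cells of the crypt, and absorptive enterocytes on the villus make large amounts of other mRNAs.

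The start sites are shown because the TOP tract is the sequence feature that defines the regulation of this family. RefSeq windows on GRCm38.p6, from 250 bases before to 50 bases after an annotated start, matched 63 of the 83 genes. A C at the annotated start with at least 4 pyrimidines after it was present for 13 of the 63 genes (20.6%), against 813 of all 27025 genes with a window (3.01%). The letters CCGGAAG or, on the other strand, CTTCCGG, the core of many ETS-factor motifs, occurred anywhere in the window of 26 of the 63 genes (41.3%), against 9.93% of all genes. A tract that begins a few bases from the annotated start is not counted, so these shares depend on where the start was annotated. The lines below give 10 bases before the start and 20 bases from it on; capitals mark the unbroken run of pyrimidines from a C at the start, and the last 3 genes have no such run of more than 1 base.
Rpl35, minus strand, chr2:39005112-39005141: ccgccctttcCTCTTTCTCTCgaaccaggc
Rpl15, minus strand, chr14:18270967-18270996: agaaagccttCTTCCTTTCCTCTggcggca
Rps6, minus strand, chr4:86857348-86857377: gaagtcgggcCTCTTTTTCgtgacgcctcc
Rps27, minus strand, chr3:90213629-90213658: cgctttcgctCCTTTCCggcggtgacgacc
Rplp2, plus strand, chr7:141447641-141447670: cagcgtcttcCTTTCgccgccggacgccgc
Rpl31, plus strand, chr1:39367841-39367870: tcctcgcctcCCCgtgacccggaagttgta
Rpl7l1, minus strand, chr17:46782637-46782666: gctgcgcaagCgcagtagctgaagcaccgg
Rpl22l1, plus strand, chr3:28805498-28805527: gcgcaagcccgttctcttcccacggctgca
Rpl24, plus strand, chr16:55966265-55966294: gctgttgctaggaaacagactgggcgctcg
The ribosomal genes Rpl35, Rpl15 and Rps6 show runs of 11, 13 and 9 pyrimidines, and Rpl31 a run of 3. Rpl7l1 and Rpl22l1 are paralogs of the core genes Rpl7 and Rpl22. Rpl7l1 and Rpl24 return below as genes that differ from the rest of the family in level or in variation.

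Libraries held 24946836 to 37285510 counts. Epcam, an epithelial surface protein, was at 1748 to 3150 CPM (a count relative to the library total), and Ptprc, the pan-leukocyte marker CD45, at 0.210 to 0.664 CPM. Levels of Epcam and Ptprc and summed levels of marker genes are relative to the plain library total. Levels of the tested ribosomal protein genes were also scaled by TMM, a correction for library composition, so the 2 scales differ. The summed level of 11 T cell markers stayed between 0.440 and 3.93 CPM and that of 6 red blood cell markers at or below 1.35 CPM in every library. Other lists were higher: 9 myeloid markers summed to 14.6 to 43.7 CPM, and 11 markers of stroma and vessel to 3.51 to 8.20 CPM. Paneth cell markers, 8 genes of the crypt base, summed to 3054 to 26054 CPM. Libraries also differed in how strongly long and short transcripts were represented. This was measured as the length slope: for 5965 other protein-coding genes with a mean of at least 20 CPM, the slope of each gene's log2 deviation from its mean over 18 libraries on its log2 exon length. A positive slope means that long transcripts are over-represented in a library. It ran from -0.258 in virgin 2 to 0.298 in pseudopregnant 5.

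Ribosomal protein genes as a whole took a smaller share of the counts in the pregnant and pseudopregnant groups than in the virgin group, by amounts within the spread between libraries. Virgin libraries gave them 4.40% ± 1.22 (SD, n = 6) of all counts, pregnant libraries 3.62% ± 1.25 (SD, n = 6) and pseudopregnant libraries 3.35% ± 0.834 (SD, n = 6). Among virgin libraries the lowest, median and highest shares were 2.48%, 4.55% and 6.11%. Among pregnant libraries they were 2.21%, 3.43% and 5.49%, and among pseudopregnant libraries 2.62%, 2.96% and 4.56%. The 3 groups overlapped: virgin 3 lay below all but 1 of the other 17 libraries, and pregnant 1 was the second highest of all. The differences between group means were -0.78 percentage points for pregnant against virgin, -1.05 for pseudopregnant against virgin and 0.27 for pregnant against pseudopregnant, beside a pooled SD within groups of 1.12. Without virgin 2 the first of these was -0.44, and without pregnant 1 the last was -0.10. A share rests on 679829 to 1716587 counts, and its Wilson 95% interval is at most 0.0179 percentage points wide, so counting error is small beside these differences between libraries; such intervals cover counting error only. In bulk RNA, fewer cells of a type and less RNA per cell cannot be told apart.

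**Figure D1:**
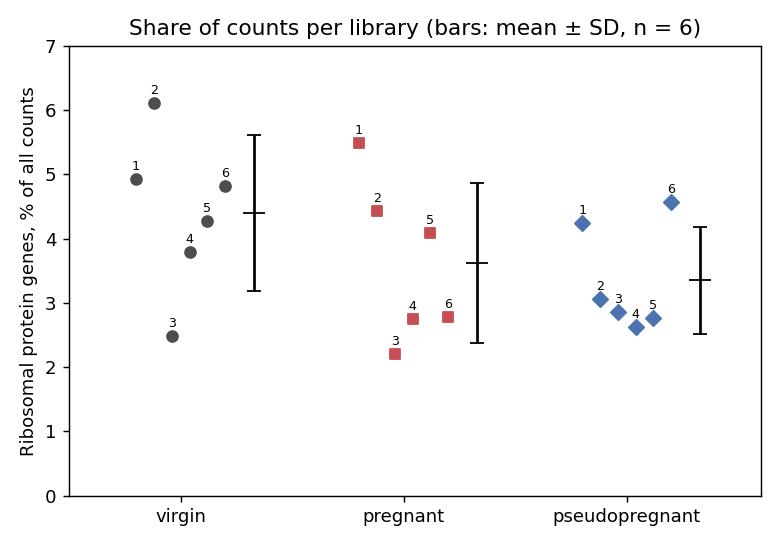
Share of all counts held by the 83 ribosomal protein genes (y axis, percent) in each of 6 virgin, 6 pregnant and 6 pseudopregnant libraries; points carry the replicate number, and bars give the mean ± SD. The groups overlap, with virgin 2 at 6.11% and pregnant 1 at 5.49% highest and pregnant 3 at 2.21% and virgin 3 at 2.48% lowest.

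The balance of the subunits moved little. Large-subunit genes held 2.54% ± 0.671, 2.10% ± 0.697 and 1.95% ± 0.451 of counts (SD, n = 6 each) in the virgin, pregnant and pseudopregnant groups. Small-subunit genes held 1.87% ± 0.547, 1.52% ± 0.554 and 1.40% ± 0.383 (SD, n = 6 each). The ratio of large- to small-subunit counts was 1.37 ± 0.043 for virgin, 1.39 ± 0.050 for pregnant and 1.41 ± 0.060 for pseudopregnant libraries (SD, n = 6 each), with overlapping ranges. The ratio was lowest in virgin 2, at 1.29, where the family's share was highest, and highest in pregnant 6, at 1.47. Over 18 libraries, Pearson's r between ratio and share was -0.88 and Spearman's rho -0.85; the small-subunit share is part of both quantities, and without virgin 2 and pregnant 6, the libraries farthest from the median ratio, r was -0.84. With counts divided by exon length the ratio was 1.42 ± 0.025, 1.44 ± 0.033 and 1.44 ± 0.044 (SD, n = 6 each) in the same order.

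Pregnancy was compared with the virgin state gene by gene with edgeR's quasi-likelihood test. None of the 80 tested ribosomal protein genes passed an adjusted p of 0.05 after Benjamini-Hochberg correction over 14675 genes, and 0 had an unadjusted p under 0.05; over all tested genes those shares were 0% and 3.68% (1.66% lower and 2.02% higher in pregnancy). DESeq2 and limma-voom also called 0 members. All 80 fold changes were negative, against 51.5% of all genes, with a median of -0.27 on the log2 scale (range -0.44 to -0.12), beside -0.01 over all genes. The median standard error of a member was 0.26, so the typical difference was about the size of its own error. No member had groups that did not overlap (0.0681% of all genes did). The 80 genes are not independent, as their values rise and fall together between libraries: the median was -0.09 without virgin 2 and -0.48 without pregnant 1. Members with an unadjusted p under 0.05 then numbered 18 without pregnant 1 (9.34% of all genes in that fit) and 11 without virgin 3 (13.2% of all genes), with 0 called.

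Pseudopregnant libraries differed from virgin ones in the same sign, again without a call. In edgeR's test 0 of 80 members passed the adjusted threshold (0% of all genes) and 0 had an unadjusted p under 0.05 (9.37% of all genes, 2.01% lower and 7.36% higher in pseudopregnancy). All 80 fold changes were negative, against 49.4% of all genes, with a median of -0.43 (range -0.66 to -0.04) on the log2 scale. This comparison uses the same virgin libraries as the one before it, and without virgin 2 its median was -0.26. Without pseudopregnant 1, 44 members had an unadjusted p under 0.05 (22.9% of all genes in that fit), and without virgin 3, 40 did (17.5% of all genes), with 0 called after adjustment. Members under 500 bases had a median log2 fold change of -0.51 and members of at least 1000 bases one of -0.40. No member's groups were free of overlap, against 0.0681% of all genes.

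Pregnant and pseudopregnant libraries were also compared with each other. The textbook account likens pseudopregnancy to early gestation. The day of pregnancy is not given, so whether these libraries share a hormonal state is unknown. Again 0 of 80 members passed the adjusted threshold (0% of all genes) or had an unadjusted p under 0.05 (2.35% of all genes, 1.59% lower and 0.763% higher in pregnancy) in edgeR's test. Of the 80 fold changes, 6 were negative, against 51.6% of all genes, and the median was 0.16 (range -0.19 to 0.46) on the log2 scale. Without pregnant 1 the median was -0.04, on the other side of 0. No members' groups were separate, against 0.0273% of all genes.

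Libraries of one group differed more from each other than the group means did, and nearly every gene took part in this. The median gene had an SD of 0.493 in log2 CPM over 18 libraries, against 0.280 for the other 5965 coding genes of at least 20 CPM. The highest library of the median member was 3.11 times its lowest, with 1.56 times for Rpl7l1 and 6.09 times for Rpl37a at the ends. A single principal component held 94.6% of the members' variance. For 74 of the 80 genes the correlation with the mean of the other members was above 0.9, and the median correlation was 0.98. Virgin 2 was the highest library for 54 genes, pregnant 1 for 25 and pseudopregnant 6 for 1, Rpl7l1. The lowest library was pregnant 3 for 24 genes, pseudopregnant 5 for 23, virgin 3 for 18, pseudopregnant 4 for 14 and pregnant 4 for 1.

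**Figure D2:**
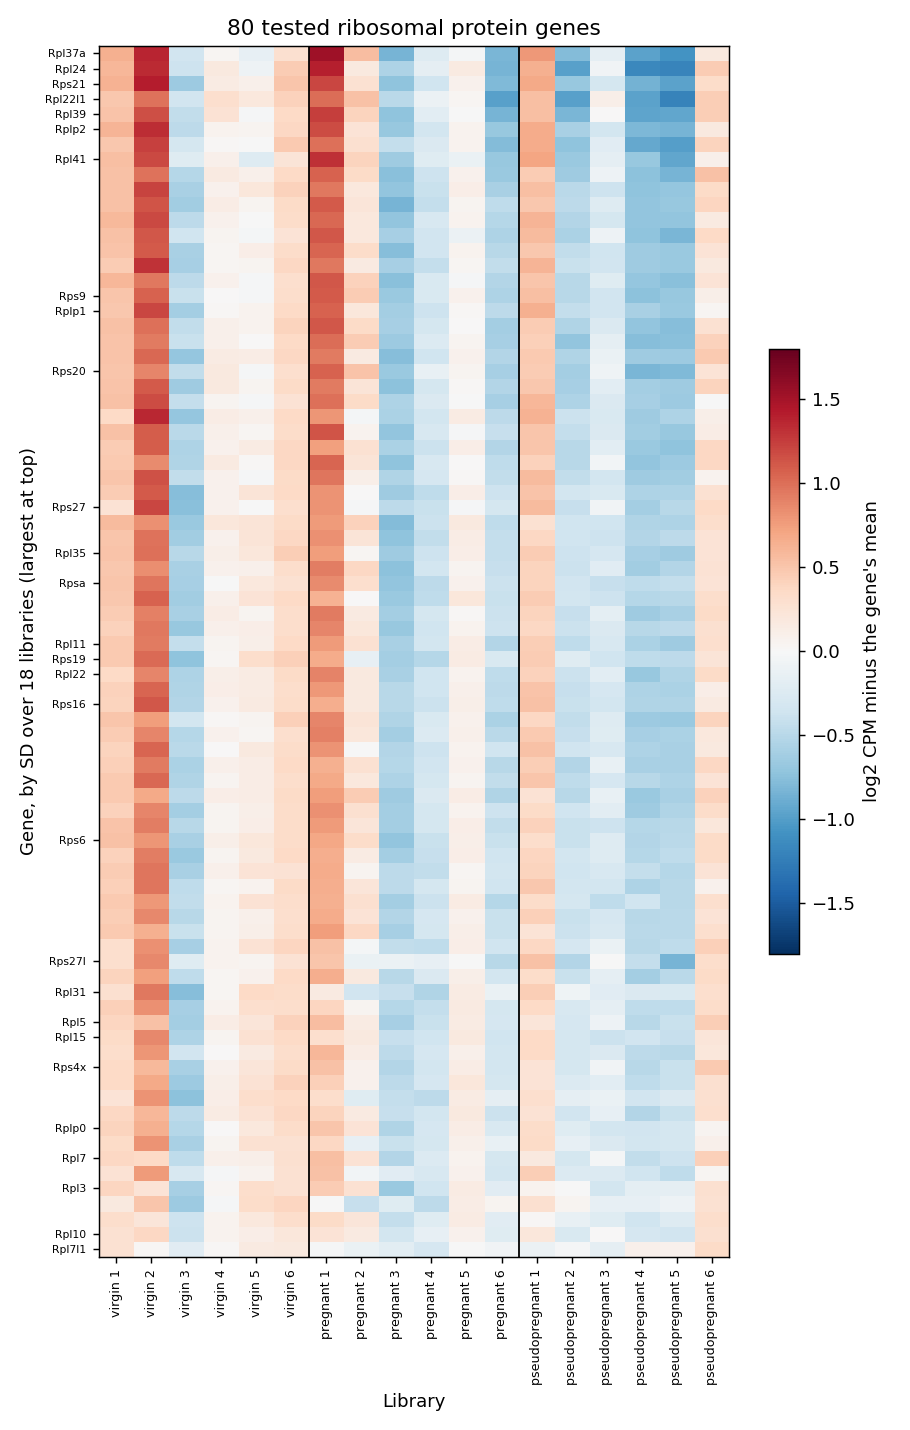
Deviation of each of the 80 tested genes (rows, largest SD at the top) from its own mean over 18 libraries, in log2 CPM (colour), with libraries in columns and lines between the 3 groups; only some genes are labelled. Nearly all genes are high in virgin 2 and pregnant 1 and low in pregnant 3 and virgin 3, and Rpl7l1 in the bottom row stays within a narrow range.

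The length slope moved with the family's share. Over 18 libraries r was -0.82 and rho -0.85: libraries that favoured long transcripts had fewer ribosomal protein counts. Leaving out virgin 2 and pseudopregnant 5, the libraries farthest from the median slope, r was -0.78. Within groups r was -0.91 for virgin, -0.84 for pregnant and -0.82 for pseudopregnant libraries, over 6 libraries each. The slope itself was -0.0777 ± 0.114 for virgin, -0.00329 ± 0.137 for pregnant and 0.0810 ± 0.192 for pseudopregnant libraries (SD, n = 6 each), with overlapping ranges. Ribosomal protein genes were not used to compute it, but both quantities come from the same libraries. The correlation of each member's log2 level with the slope was negative for all 80 genes, with a median of -0.90 and ends at -0.98 for Rpl24 and -0.12 for Rpl7l1.

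With the length slope as a covariate, the medians of the 80 fold changes were closer to 0, and 2 of the 3 changed sign. For pregnant against virgin the median was -0.07 with 70 genes negative, and for pseudopregnant against virgin it was 0.03 with 23 genes negative. For pregnant against pseudopregnant it was -0.10 with 76 genes negative, where 6 had been negative without the covariate. The median standard error was 0.14 instead of 0.26 for pregnant against virgin, and still 0 members had an unadjusted p under 0.05 in any comparison. The lowest value was that of Rpl31 for pregnant against virgin (-0.27) and for pregnant against pseudopregnant (-0.30). The group differences in share became -0.35, -0.12 and -0.22 percentage points in the same order of comparisons.

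**Figure D3:**
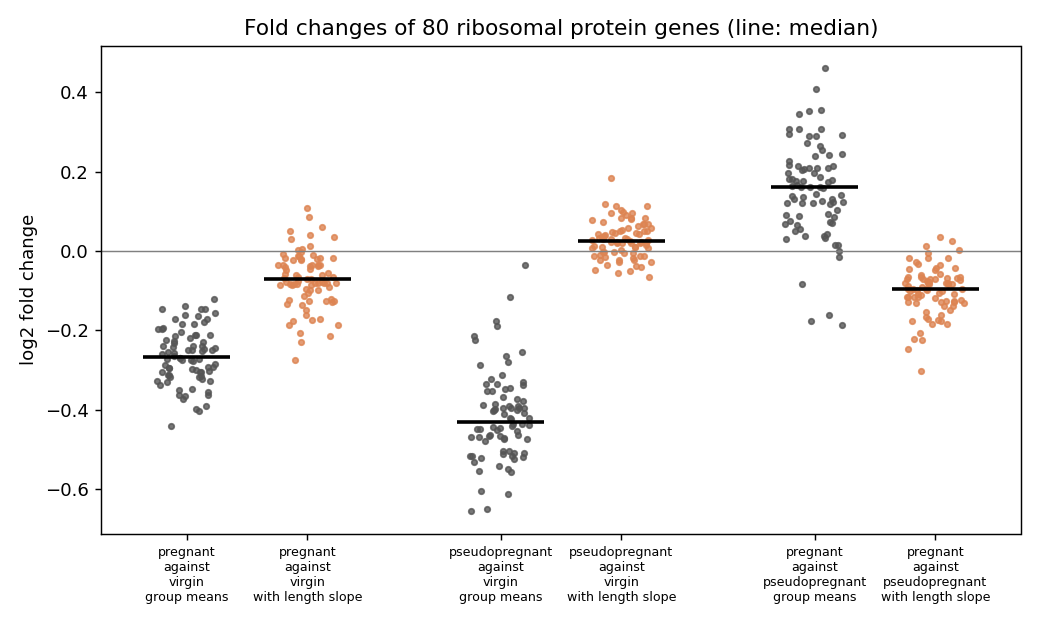
log2 fold changes (y axis) of the 80 tested genes in the 3 comparisons, from group means alone (grey) and with each library's length slope as a covariate (orange); each point is a gene, and black lines are medians. All grey points of the first and second comparison lie below 0, with medians of -0.27 and -0.43, and the orange medians are -0.07, 0.03 and -0.10.

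A measure of epithelial make-up moved with the share as well. The mean log2 deviation of 24 absorptive enterocyte genes minus that of 30 proliferation genes ran from -0.816 in virgin 5 to 1.46 in pregnant 3. Its r with the share was -0.62 and its rho -0.56 over 18 libraries, and r was -0.47 without virgin 3 and pregnant 3, the libraries farthest from its median. Within groups r was -0.81 in virgin and -0.82 in pregnant libraries and -0.002 in pseudopregnant ones. Its parts differed: enterocyte genes alone had an r of -0.73 with the share, and -0.59 without virgin 2 and pregnant 3. Proliferation genes alone had an r of 0.42, and 0.17 without virgin 3 and pregnant 3. For Paneth cell genes r was 0.74. The enterocyte-minus-proliferation score and the length slope had an r of 0.12 with each other. A linear model on both accounted for 94.6% of the variance of the share over 18 libraries, against 66.8% for the slope and 38.4% for the score alone. With the score as a covariate the median member fold changes were -0.10, -0.29 and 0.19 in the order of comparisons above. The share of counts from the mitochondrial genome had an r of -0.60 with the ribosomal protein share. Of the 24 enterocyte genes, 21 had positive fold changes for pregnant against virgin (median 0.44) and 18 for pseudopregnant against virgin (median 0.18), with summed levels of 30508 to 72112 CPM in virgin, 39504 to 67705 CPM in pregnant and 36955 to 56638 CPM in pseudopregnant libraries and none at 0 throughout a group. All 30 proliferation genes were negative for pregnant against virgin (median -0.19), but 13 of 30 for pseudopregnant against virgin (median 0.02). All 8 Paneth cell genes were negative in both comparisons (medians -0.12 and -0.34), as were 18 and 17 of 18 genes of dissociation and immediate early response (medians -0.20 and -0.22). Of 15 enteroendocrine genes, 15 and 14 were negative (medians -0.38 and -0.26), and of 10 goblet cell genes, 10 and 7 (medians -0.30 and -0.21). Of 10 stem cell genes, 7 and 2 were negative (medians -0.08 and 0.24). The part of any of these measures in the differences between groups was not tested.

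**Figure D4:**
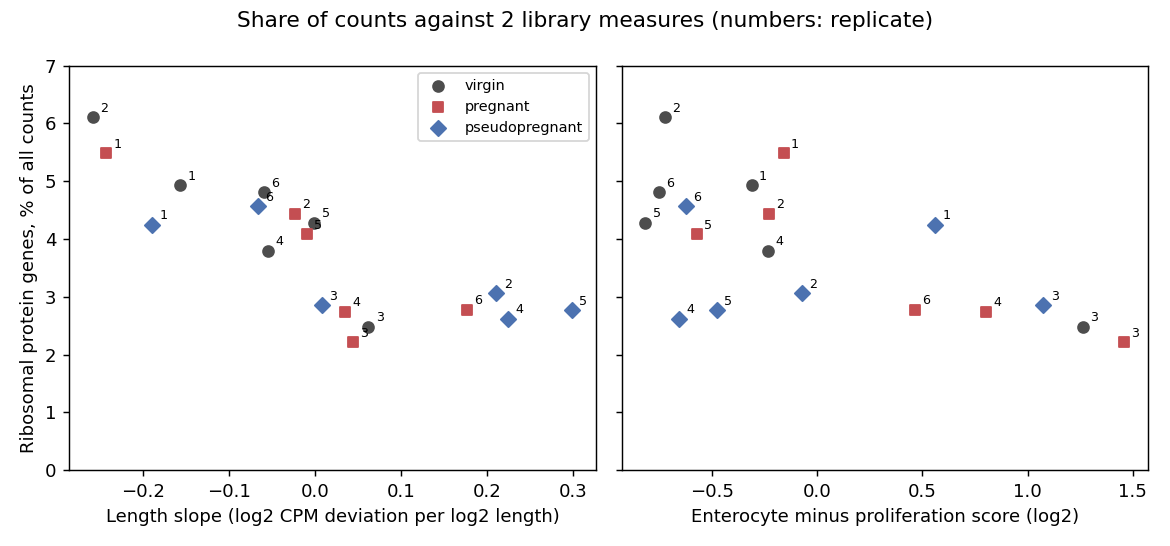
Share of counts held by ribosomal protein genes (y axis, percent) against each library's length slope (left) and enterocyte-minus-proliferation score (right); points are the 18 libraries, labelled by replicate number. The share falls from 6.11% in virgin 2 to under 3.1% in the pseudopregnant libraries of highest slope (r = -0.82), and pregnant 3 and virgin 3, of highest score, have the lowest shares.

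Among the large-subunit genes, Rpl31, a protein at the rim of the exit tunnel, had the smallest unadjusted p for pregnant against virgin. Its lowest, median and highest levels were 175, 369 and 575 CPM in virgin, 205, 254 and 333 CPM in pregnant and 247, 270 and 404 CPM in pseudopregnant libraries. Virgin libraries thus held both its lowest and its highest value. The log2 fold change for pregnant against virgin was -0.44 ± 0.22 (SE), with an edgeR adjusted p = 0.891. Without virgin 3 the same value was -0.58 and without virgin 2 it was -0.26.

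Rpl35 and Rpl15 had the smallest p-values among the large-subunit genes for pseudopregnant against virgin. Rpl35, another protein of the exit tunnel rim, ranged over 204, 360 and 574 CPM (lowest, median, highest) in virgin, 184, 258 and 485 CPM in pregnant and 185, 227 and 393 CPM in pseudopregnant libraries. Its log2 fold change for pseudopregnant against virgin was -0.51 ± 0.26 (SE; edgeR adjusted p = 0.515). The exons of Rpl35 overlap Arpc5l and Wdr38 on the opposite strand over 66.2% of their length, and the strand setting of the counting is not given in the sources used here. Rpl15 had a log2 fold change of -0.39 ± 0.21 (SE; edgeR adjusted p = 0.515). Neither gene passed the threshold.

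Rpl5 and Rpl11 join the smallest RNA of the large subunit before it enters the ribosome, and unassembled copies bind Mdm2, the inhibitor of p53. Rpl5 was at 864 ± 209 CPM in virgin, 729 ± 223 CPM in pregnant and 708 ± 190 CPM in pseudopregnant libraries (SD, n = 6 each). Rpl11 was at 520 ± 167, 431 ± 166 and 381 ± 130 CPM (SD, n = 6 each). Rpl11 followed the family closely: after subtraction of each library's median member deviation its SD was 0.049 on the log2 scale, second only to Rpl34 at 0.048 as the smallest, with Rpl8 at 0.051. Rpl5 had an SD of 0.159 on that scale.

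Rpl3 and Rpl10, a protein at the catalytic centre and one of the last to join the subunit, varied less than most. Rpl10 was at 631 ± 106, 570 ± 90.4 and 558 ± 109 CPM in virgin, pregnant and pseudopregnant libraries (SD, n = 6 each), and its highest level was 1.69 times its lowest. Rpl3 was at 642 ± 139, 576 ± 163 and 563 ± 86.4 CPM (SD, n = 6 each). Of all 80 members, Rpl3 had the strongest negative correlation with the enterocyte-minus-proliferation score (r = -0.80), whereas its r with the length slope was -0.56. Their fold changes for pregnant against virgin were -0.16 ± 0.19 for Rpl3 and -0.15 ± 0.15 for Rpl10 (log2, SE; edgeR adjusted p = 0.902 and 0.893).

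At the other end stood Rpl37a, Rpl24, Rpl22l1, Rpl39 and Rpl41. Rpl37a, a zinc-binding protein, ranged over 282, 403 and 928 CPM (lowest, median, highest) in virgin, 200.4, 327 and 1036 CPM in pregnant and 170, 264 and 618 CPM in pseudopregnant libraries. The highest value in each group came from virgin 2, pregnant 1 and pseudopregnant 1, the libraries of lowest length slope in their groups. Relative to the median member Rpl37a stood at 0.74 log2 units in pregnant 1 and at -0.52 in pseudopregnant 5. Its log2 fold change for pregnant against pseudopregnant was 0.46 ± 0.41 (SE; edgeR adjusted p = 0.920), the highest of the members. Rpl39, which lines the exit tunnel, and Rpl41, the smallest protein of the ribosome, had SDs of 0.682 and 0.642 in log2 CPM and correlations of -0.953 and -0.945 with the length slope.

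Rpl24, which forms a bridge between the subunits, was among the members of lowest level per length. Its lowest, median and highest levels were 23.3, 37.8 and 76.6 CPM in virgin, 16.9, 30.4 and 79.4 CPM in pregnant and 13.2, 22.1 and 46.8 CPM in pseudopregnant libraries. The groups overlapped widely, and its log2 fold change for pseudopregnant against virgin, -0.65 ± 0.39, was the most negative after that of Rps21 (SE; edgeR adjusted p = 0.515). Its exons share 47.0% of their length with Gm28037 on the same strand, a locus with 0 counts in every library, so its level is uncertain in these tables. The same holds, to a lesser extent, for Rpl13a, with 35.4% of its exon length shared on the same strand, and for Rpl23a, with 62.3% shared on either strand. In all, 38 of the 83 members share exon bases with another gene.

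Rpl17 and Rpl31 departed from the family in the same libraries. Relative to the median member, Rpl31 was at -0.63 and -0.55 in pregnant 1 and pregnant 2 and at 0.32 in pregnant 6 (log2). Rpl17 was at -0.47 and -0.42 in pregnant 1 and pregnant 2 and at 0.28 in pregnant 6. Their correlations with the length slope were weaker than the median member's, at -0.64 for Rpl31 and -0.70 for Rpl17. Rpl17 itself was at 464 ± 144, 361 ± 81.0 and 382 ± 76.0 CPM in virgin, pregnant and pseudopregnant libraries (SD, n = 6 each). Its log2 fold change for pregnant against virgin was -0.36 ± 0.20 (SE; edgeR adjusted p = 0.891).

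Small-subunit genes behaved alike. Rps6, the substrate of the S6 kinases downstream of mTORC1, ranged over 395, 716 and 1027 CPM (lowest, median, highest) in virgin, 365, 545 and 965 CPM in pregnant and 412, 478 and 753 CPM in pseudopregnant libraries. Rpsa, also known as the laminin receptor precursor, was at 974 ± 344, 815 ± 350.0 and 728 ± 209 CPM (SD, n = 6 each). Rps19, the gene most often mutated in Diamond-Blackfan anaemia, was at 332 ± 122, 251 ± 89.6 and 244 ± 70.0 CPM (SD, n = 6 each), and its log2 fold change for pregnant against virgin of -0.40 ± 0.26 was the lowest of the small subunit (SE; edgeR adjusted p = 0.891). Rpl36a and Rps4x are encoded on the X chromosome. Rpl36a was at 239 ± 96.6, 198 ± 107 and 171 ± 64.4 CPM and Rps4x at 835 ± 203, 707 ± 200.4 and 700.1 ± 195 CPM (SD, n = 6 each).

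Rps16, Rps9 and Rps20 were the small-subunit genes with the smallest p-values in comparisons with the pseudopregnant group. For pseudopregnant against virgin, Rps16 had a log2 fold change of -0.47 ± 0.26 (SE; edgeR adjusted p = 0.515). For pregnant against pseudopregnant, Rps9 and Rps20 had values of 0.36 ± 0.31 and 0.35 ± 0.30 (SE; edgeR adjusted p = 0.920 each). Without pregnant 1, the library with the highest level of both, the direction of the median member in that comparison turned, as given above. Rps21, a short mRNA of 394 bases chosen here after its values were seen, had the largest SD of the small subunit (0.714 in log2 CPM), from 137 CPM in pseudopregnant 5 to 704 CPM in virgin 2.

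Per kilobase of principal transcript, Rps12 (1454 CPM per kilobase), Rplp1 (1414) and Rpl41 (1413) were the most abundant members, and Rpl7l1, Rpl24 (50.9) and Rps15a (58.0), from the lowest up, the least; the member median was 563. Divided by exon length, the highest were Rplp1 (1414), Rps3a1 (841) and Rps15 (780). The place of Rps15a depends on an annotated transcript length of 5130 bases, the longest of the family. These levels are averages over 18 libraries and carry the same uncertainty in transcript length.

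The stalk proteins recruit the translation GTPases to the ribosome. Rplp0, the base of the stalk, had a range of 773, 1324 and 1728 CPM (lowest, median, highest) in virgin, 762, 1059 and 1564 CPM in pregnant and 867, 919 and 1389 CPM in pseudopregnant libraries. Rplp1 was at 836 ± 366, 693 ± 346 and 587 ± 227 CPM and Rplp2 at 508 ± 235, 408 ± 232 and 332 ± 152 CPM (SD, n = 6 each). The count ratio of Rplp1 to Rplp0 was 0.630 ± 0.121, 0.603 ± 0.130 and 0.562 ± 0.0949, and that of Rplp2 to Rplp0 was 0.382 ± 0.0834, 0.349 ± 0.0991 and 0.314 ± 0.0776 (SD, n = 6 each). Both ratios were highest in virgin 2 (0.869 and 0.543) and lowest in pseudopregnant 5 (0.461 and 0.238), the libraries at the ends of the length slope; Rplp1 and Rplp2 mRNAs are 499 and 449 bases long and that of Rplp0 is 1358. The groups overlapped in both ratios.

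Paralogs of core ribosomal proteins differed in whether they were present at all. Rpl10l, known from the testis, had 0 counts in every library, which allows up to 3 counts, or 0.0805 to 0.120 CPM without TMM scaling, in a library. Rpl3l, known from muscle, had at most 2 counts and Rpl39l at most 6 in a library. Rps27l, a target of p53, was at 159 ± 44.1, 130 ± 31.3 and 126 ± 45.7 CPM in virgin, pregnant and pseudopregnant libraries (SD, n = 6 each), and its counts were 0.419 ± 0.0868, 0.410 ± 0.0755 and 0.390 ± 0.0456 of those of Rps27. Rpl22l1, which can take the place of Rpl22, was at 149 ± 44.0, 125 ± 61.1 and 101 ± 52.5 CPM. Its counts were 0.545 ± 0.027, 0.524 ± 0.100 and 0.459 ± 0.124 of those of Rpl22 (SD, n = 6 each), with the lowest ratio, 0.318, in pseudopregnant 5 and the highest, 0.637, in pregnant 2. Neither ratio separated the groups.

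Rpl7l1, a paralog of Rpl7, did not follow the family. Its correlation with the mean of the other members was 0.37, the lowest of the 80, and its SD of 0.170 in log2 CPM was also the lowest. It ranged over 42.3, 52.0 and 59.1 CPM (lowest, median, highest) in virgin, 39.5, 45.8 and 48.6 CPM in pregnant and 43.7, 49.7 and 61.6 CPM in pseudopregnant libraries. The pregnant libraries were all below the median of the virgin ones, but the groups overlapped. For pregnant against virgin its log2 fold change was -0.20 ± 0.10 (SE; edgeR adjusted p = 0.891), and for pregnant against pseudopregnant -0.16 ± 0.10 (SE; edgeR adjusted p = 0.920). Rpl7 was at 706 ± 135, 638 ± 181 and 609 ± 152 CPM (SD, n = 6 each).

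Short members varied more than long ones. Across the 80 genes the SD in log2 CPM had a rho of -0.46 with the length of the principal transcripts and of -0.13 with exon length; genes are not independent replicates. Members under 500 bases (n = 11) had a median SD of 0.572 and those of at least 1000 bases (n = 24) one of 0.469. Exon length, which joins the exons of all transcripts, had a median of 1805.5 bases over the tested members, against 803.5 for principal transcripts; for the 5965 other coding genes the values were 4462 and 2871. Members are thus short on either scale. With the length slope computed from principal transcripts, its r with the share was -0.83, a measure added after the data were seen.

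**Figure D5:**
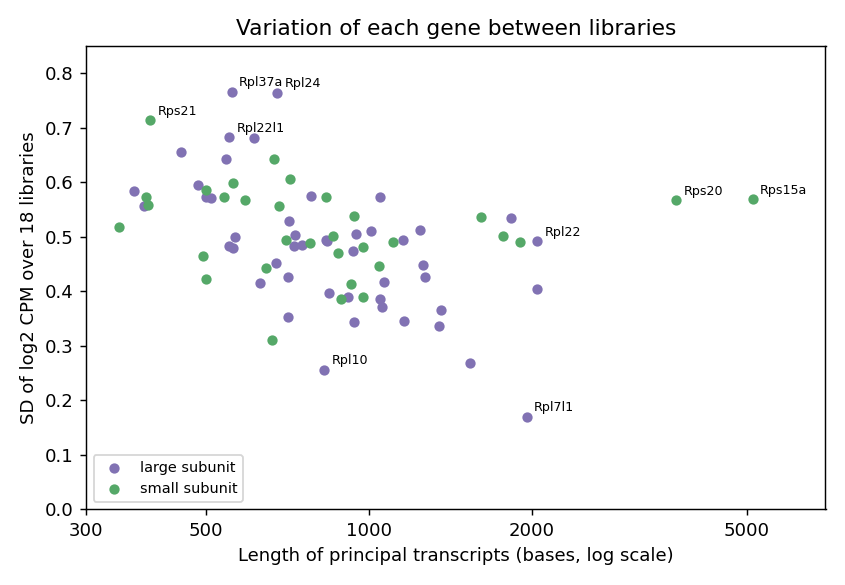
SD of log2 CPM over 18 libraries (y axis) of each tested gene against the length of its principal transcripts (x axis, bases, log scale), with large- and small-subunit genes in different colours. SDs run from 0.170 for Rpl7l1 to 0.766 for Rpl37a, and the genes with the largest values are under 1000 bases long.

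Other genes of protein synthesis were counted from lists, and 0 of their genes passed the adjusted threshold of edgeR's test in any comparison. The lists were fixed, except that of the mitochondrial ribosome, which was added to them by the form of the symbol. Among 77 tested proteins of the mitochondrial ribosome, 77 had negative fold changes for pregnant against virgin (median -0.21) and 76 for pseudopregnant against virgin (median -0.27). Of 46 ribosome biogenesis genes, 45 were negative for pregnant against virgin (median -0.23). In edgeR's test 2 of the 46, Gar1 and Rrp1, were lower at an unadjusted p under 0.05. Over all genes 1.66% were lower at that p, and 3.68% differed in either direction. For pseudopregnant against virgin 28 of the 46 biogenesis genes were negative, with a median of -0.04.

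Initiation factors, 31 genes, had medians of -0.12 and -0.12 against the virgin group in pregnant and pseudopregnant libraries, with 26 and 21 negative. Of 12 tested elongation genes, 9 and 7 were negative. Of 17 other TOP mRNAs and ribosome partners, among them Fau, 14 and 13 were negative, with medians of -0.14 and -0.24. Some genes are on more than 1 of these lists. The 25 genes of mTORC1 and its control of TOP mRNAs had medians of -0.06 and -0.03, with 15 and 14 negative. For pseudopregnant against virgin 3 of them were higher at an unadjusted p under 0.05, against 7.36% of all genes. They include the kinase gene Mtor and Tsc1, which encodes an inhibitor of the complex. With the length slope as a covariate, 2.13% of all genes had an unadjusted p under 0.05 in edgeR's test, against 9.37% without it. Values of Mtor and Tsc1 with that covariate are not reported here. Mtor was at 20.8 ± 4.65 CPM in the virgin and 30.6 ± 11.6 CPM in the pseudopregnant group (SD, n = 6 each), a log2 fold change of 0.56 ± 0.24 (SE; edgeR adjusted p = 0.515). Tsc1 was at 10.2 ± 2.83 and 15.8 ± 5.82 CPM (SD, n = 6 each), a log2 fold change of 0.64 ± 0.26 (SE; edgeR adjusted p = 0.515).

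Over 18 libraries the mean deviation of the initiation factors followed the ribosomal protein share with an r of 0.97, that of mitochondrial ribosomal proteins with 0.96, that of the TOP mRNAs and partners with 0.94 and that of ribosome biogenesis genes with 0.55. The elongation genes had an r of 0.81 and 44 nuclear genes of oxidative phosphorylation one of 0.77. All share the libraries' depth and composition. The summed share of 268 pseudogenes named after ribosomal proteins, whose sequences resemble those of the members, followed with 0.99 and was 0.216% to 0.620% of counts, less than the members' in every library. How reads that fit several places were counted is not given in the sources used here.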

How the data were processed

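The authors deposited, for each library, unnormalized whole-number read counts of Ensembl genes. The submitters' processing notes name the build GRCm38 and, with no roles stated, HISAT2 2.0.4, Subread 2.0.0, featureCounts, FastQC 0.11.5 and DESeq2 1.24.0; the sources used here do not give annotation release, strand setting or multi-mapping rule. Per the labels' protocols, poly(A) RNA went into directional NEBNext libraries. Gene types and lengths were taken from GENCODE M21; rows without an entry stayed in the totals.

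Counts were filtered with filterByExpr (14675 genes kept), scaled by TMM and tested two-sided with glmQLFit and glmQLFTest of edgeR 4.0.16 (R 4.3.3), with 1 mean per group over all 18 libraries and Benjamini-Hochberg adjustment over all tested genes. On data simulated for pregnant against virgin (14567 genes), 55% of 200 genes with a log2 fold of 1 were recovered, and 2.65% of calls were false. Shares, ratios, medians and correlations carry no test. Alternatives were other scalings, filters, DESeq2 1.42.0, limma 3.58.1 (voom), covariates and omission of each library.

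The members and lists were chosen with earlier results of these data known. Named were genes fixed by function or as paralogs, the 4 of smallest p per comparison, the 3 highest and 3 lowest per kilobase of exon, and the 3 that followed and the 3 that departed most from the median member; of other lists, genes among the 2 of smallest p. Some genes that this rule names are not reported here. The labels do not say that replicate numbers pair libraries. Correlations of same-numbered libraries ran from -0.48 to 0.66, so the numbers were not taken to pair them. Replicate 3 was nonetheless the closest match in every comparison (r = 0.66, 0.38 and 0.41), and replicates 2, 4 and 6 were in none. Replicate 3 also had the highest enterocyte-minus-proliferation score of each group. Whether same-numbered libraries share a batch is not given in the sources used here. Measures based on principal transcript length were added after the data were seen.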

Additional observations from a re-analysis of the deposited data

Results flagged for a closer look

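A library that lay far from the other 5 of its group was found in 7 of 129 groups of values examined; chance alone gives about 1 in 20. Of these, 5 were in pregnant 1, in genes that rise and fall together. In that library Rps27 was at 581 CPM (the other pregnant libraries 239 to 325), Rplp1 at 1355 CPM (427 to 746), Rplp2 at 849 CPM (233 to 443), Rps15 at 925 CPM (277 to 515) and Rpl24 at 79.4 CPM (16.9 to 34.2). Pregnant 1 had the lowest depth of the 18 libraries, 24946836 counts, and the lowest length slope of its group, -0.243; the part of these in its values was not tested. Virgin 3 had an enterocyte-minus-proliferation score of 1.26, against -0.816 to -0.232 in the other virgin libraries, and the lowest ribosomal protein share of its group. Pregnant 3 and pseudopregnant 3 also had the highest score of their groups, at 1.46 and 1.08. Virgin 4 had 8.67% of its counts from the mitochondrial genome, against 5.24% to 6.32% in the others, with a ribosomal protein share of 3.80%.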

How the results depend on the processing

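No member was called in any comparison under any alternative run. Differences in share, subunit ratio and median fold change moved by less than the SD within groups (1.12 percentage points, 0.051 and 0.48). That SD is larger than each of the differences themselves, so a move below it does not show that a difference is stable. Within that spread, the length slope as a covariate turned the sign of the median fold change for pseudopregnant against virgin (0.03) and for pregnant against pseudopregnant (-0.10). In these comparisons 57 and 70 of the 80 members changed sign. Leaving out 1 library at a time, the median log2 fold change ran from -0.48 (without pregnant 1) to -0.09 (without virgin 2) for pregnant against virgin, from -0.58 (without pseudopregnant 1) to -0.26 (without virgin 2) for pseudopregnant against virgin, and from -0.04 (without pregnant 1) to 0.31 (without pseudopregnant 1) for pregnant against pseudopregnant. Share differences ran from -1.16 (without virgin 3) to -0.44 (without virgin 2), from -1.43 to -0.71 (the same libraries) and from -0.10 (without pregnant 1) to 0.55 (without pregnant 3) percentage points, and ratio differences from 0.013 (without virgin 2) to 0.041 (without pregnant 1), 0.025 (without virgin 2) to 0.053 (without pseudopregnant 6) and -0.026 (without pregnant 6) to 0.0017 (without pregnant 1). Members with an unadjusted p under 0.05 numbered 18 without pregnant 1 and 11 without virgin 3 (pregnant against virgin; 9.34% and 13.2% of all genes), and 44 without pseudopregnant 1 and 40 without virgin 3 (pseudopregnant against virgin; 22.9% and 17.5% of all genes). With a replicate block, though the numbers were not taken to pair the libraries, the medians were -0.29, -0.40 and 0.12. In that fit 24 members had an unadjusted p under 0.05 for pseudopregnant against virgin (13.5% of all genes), and 0 were called. With block and length slope the medians were -0.08, 0.01 and -0.10. Of 2775 values of single genes under the alternatives, 2624 moved by less than the SD within groups. This SD is a spread between single libraries, so the count does not show that the values are stable. DESeq2 called 5 genes, none a member, for pregnant against virgin.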
